A study of Mus musculus with 9 samples.

Results

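The genes *Slc14a1*, *Ly9*, *Adcyap1r1*, *Fmo1*, *Edil3*, *Nkain4*, *Il22ra1* and *Mgat4a* were examined in RNA-Seq of mouse embryonic fibroblasts (MEFs), cultured connective tissue cells derived from embryos. These 8 of 24341 listed genes were picked by symbol because earlier results of the same counts had shown them at very different levels in WT, *Atm-/-* and *Sirt6-/-* cells, so their levels are given here as a description. Each genotype had 3 samples of strain C57BL/6, grown in DMEM medium with 10% FBS, and the labels name no drug or other agent. *Atm* encodes a kinase of the DNA damage response and *Sirt6* a chromatin deacylase, and the study sequenced these cells to ask how their loss changes the expression of metabolic genes.

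The labels give the genotypes WT, *Atm-/-* and *Sirt6-/-*, but they also name P53-/- and Atm-/-P53-/- mice among the sources of MEFs without assigning them to samples. The study's methods describe immortalized *Atm-/-; p53-/-* and *Sirt6-/-* MEFs that were received from separate laboratories, and they do not say which MEFs were sequenced. Genotype, p53 status, immortalization and the origin of a line therefore cannot be told apart, and a difference between groups is a difference between these cultures. Nothing states that the 3 samples of a genotype came from separate cultures or embryos, so p-values measure the spread between these samples, which may be technical. In bulk RNA, fewer cells that express a gene and less RNA per cell cannot be told apart.

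Libraries held 32187040 to 33837949 counted reads, so 3 reads in a library corresponded to 0.0856 to 0.0959 CPM (reads scaled to a common library size with TMM factors, as all CPM here). *Sirt6* had 4 to 7 reads in *Sirt6-/-*, against 402 to 487 in WT and 364 to 424 in *Atm-/-*. *Atm* went against its label, with 3443 to 3768 reads in the libraries labelled *Atm-/-*, 1536 to 1627 in WT and 2072 to 2390 in *Sirt6-/-*. Reads per gene do not show which exons they came from, so they do not check a deletion within *Atm*. Wherever a direction is given, *Atm-/-* stands for the libraries labelled *Atm-/-*. *Trp53*, which encodes p53, had 219 ± 9.82 CPM in WT, 25.9 ± 2.29 in the libraries labelled *Atm-/-* and 279 ± 2.79 in *Sirt6-/-* (mean ± SD, n = 3). The 12 fibroblast markers summed to 28425 to 31568 CPM in WT, 9222 to 9470 in *Atm-/-* and 20483 to 20822 in *Sirt6-/-*. Single markers of this list differed, as *Lum*, a collagen-binding proteoglycan gene, had 10, 5 and 5 reads in WT, 8, 7 and 6 in *Sirt6-/-* and 0 in every *Atm-/-* library. *Thy1*, a surface antigen of fibroblasts, had 18.9 to 29.5 CPM in WT, 82.9 to 91.3 in *Atm-/-* and 0.0307 to 1.02 in *Sirt6-/-*. Of the marker lists not named beside a gene, cartilage summed to 5.58 to 5.94, 71.2 to 87.5 and 267 to 319 CPM in WT, *Atm-/-* and *Sirt6-/-*, endothelium to 3.11 to 5.15, 9.80 to 12.5 and 0.649 to 0.9896, and adipocytes to 4.61 to 6.58, 12.5 to 17.0 and 13.7 to 18.5. Single genes made up most of these differences. *Acan* had 48.7 to 61.9 CPM in *Atm-/-*, and *Col2a1* had 244 to 297 in *Sirt6-/-*. *Kdr* had 2.73 to 4.32 CPM in WT, 9.75 to 12.2 in *Atm-/-* and 0.124 to 0.360 in *Sirt6-/-*. Every other endothelial marker had no more than 13 reads in any library. Adipocyte sums were almost all *Fabp4*, with *Plin1* and *Cidec* at 0 reads in every library.

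Of the 8 genes, 5 encode proteins of the plasma membrane. Ly9 is a receptor of the SLAM family, which leukocytes use for contact with each other. Adcyap1r1 is the G protein-coupled receptor of the neuropeptide PACAP, Il22ra1 is the ligand-binding chain of the interleukin-22 receptor of epithelia, Slc14a1 is a channel-like transporter of urea, and Nkain4 belongs to a small family of proteins that bind a subunit of the Na+/K+ pump. Edil3 is a secreted protein of the extracellular matrix that binds integrins, Fmo1 is a flavin monooxygenase of the endoplasmic reticulum that oxidizes drugs and other small molecules, and Mgat4a is a Golgi enzyme that adds a branch to N-linked glycans.

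A gene was called on in a genotype when all 3 samples had 1 CPM or more, off when all 3 were under 0.3 CPM, and between otherwise. *Ly9* was on in WT alone and *Fmo1* in *Sirt6-/-* alone. *Slc14a1* and *Edil3* were on in both knockouts and off in WT, and *Il22ra1* was on in WT and *Atm-/-* and off in *Sirt6-/-*. *Nkain4* was on in WT, off in *Sirt6-/-* and between in *Atm-/-*, and *Adcyap1r1* was on in WT and between in both knockouts. *Mgat4a* was off in no genotype, and its levels formed a graded series.

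**Figure D1:**
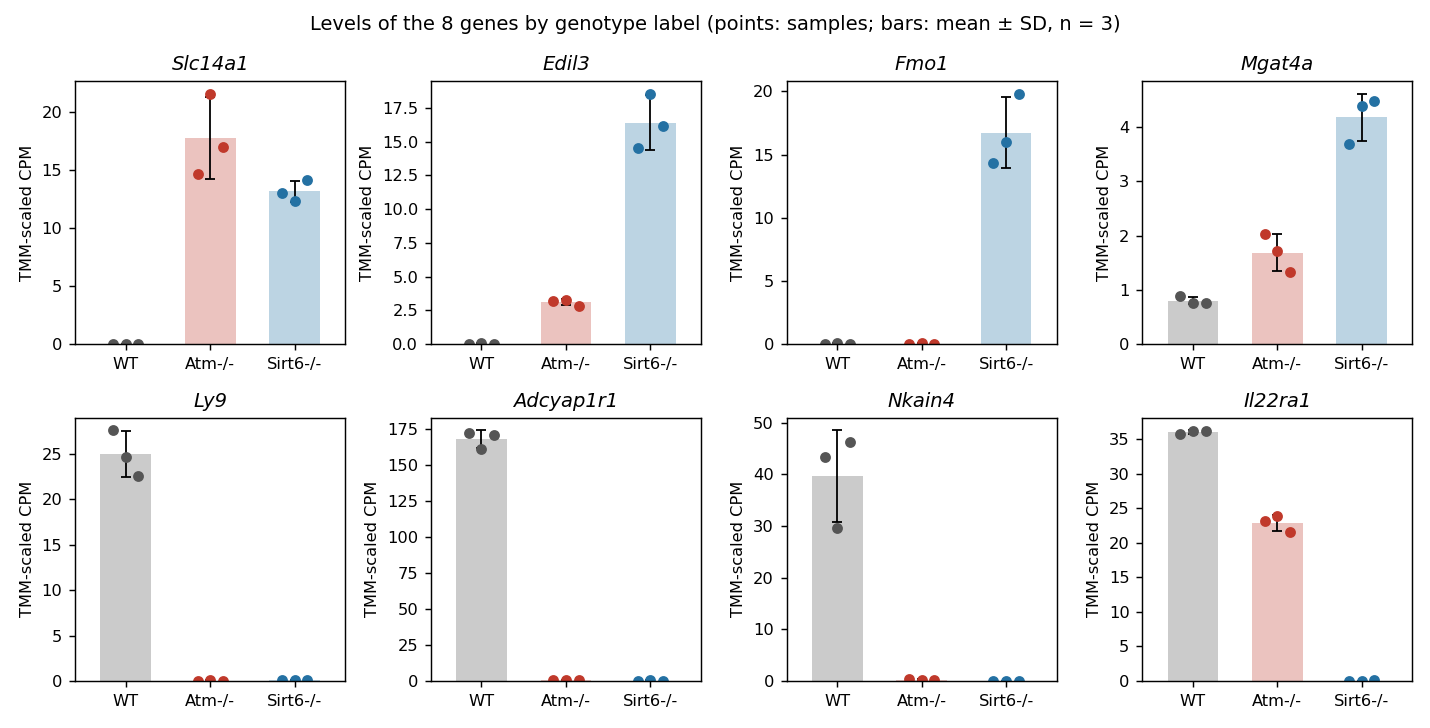
TMM-scaled CPM of the 8 genes in WT, *Atm-/-* and *Sirt6-/-* samples. Points are samples, bars are means and lines are SD (n = 3), and each panel has its own axis starting at 0. *Slc14a1*, *Edil3*, *Fmo1* and *Mgat4a* (upper row) were at or near their lowest in WT, and the 4 genes of the lower row were highest in WT.

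Sequence just before the start of the gene was available for 3 of the 8 genes in the RefSeq promoter table (GRCm38.p6). The window of *Adcyap1r1* lay inside the gene's own span and is not printed. *Il22ra1* is shown beside its neighbour *Ifnlr1*, because both were low in *Sirt6-/-*. *Mgat4a* is shown as a gene that, like *Adcyap1r1*, was off in no genotype. Lines run 5′ to 3′ on the gene's strand, and capitals mark CG dinucleotides, the sites of DNA methylation in mammals. The stretches are chr4:135727909-135728158 on the plus strand for *Il22ra1*, chr4:135686207-135686456 on the plus strand for *Ifnlr1*, and chr1:37541061-37541266 on the minus strand for *Mgat4a*.
Il22ra1: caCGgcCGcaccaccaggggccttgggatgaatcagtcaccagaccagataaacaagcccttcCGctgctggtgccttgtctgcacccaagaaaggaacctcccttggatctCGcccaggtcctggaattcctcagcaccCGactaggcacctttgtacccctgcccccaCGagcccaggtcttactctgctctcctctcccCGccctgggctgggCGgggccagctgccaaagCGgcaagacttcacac
Ifnlr1: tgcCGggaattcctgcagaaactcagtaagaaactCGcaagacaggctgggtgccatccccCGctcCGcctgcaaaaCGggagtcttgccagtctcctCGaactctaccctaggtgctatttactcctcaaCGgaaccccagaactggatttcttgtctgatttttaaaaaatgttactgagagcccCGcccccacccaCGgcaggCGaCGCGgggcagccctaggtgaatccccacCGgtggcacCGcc
Mgat4a: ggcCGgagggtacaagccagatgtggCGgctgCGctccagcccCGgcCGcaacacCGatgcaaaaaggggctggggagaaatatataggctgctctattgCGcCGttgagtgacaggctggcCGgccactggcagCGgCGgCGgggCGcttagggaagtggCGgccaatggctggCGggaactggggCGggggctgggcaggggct

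Over the 300 bases of a promoter in that table (250 before and 50 after the start), *Mgat4a* had 35 CG sites and a ratio of observed to expected CG of 0.880, above 85.8% of all 32851 promoters. *Il22ra1* had 11 CG sites and a ratio of 0.373, and *Ifnlr1* had 18 and 0.664. *Adcyap1r1* had 17 and 0.504. The median promoter had 7 sites and a ratio of 0.384, so *Il22ra1* was close to the median and *Mgat4a* far above it. Another start of *Mgat4a*, inside the gene, had 2 CG sites and a ratio of 0.207.

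Promoter words were searched on both strands of these 300 bases. The core of a GC box, GGGCGG, was present at *Il22ra1*, *Ifnlr1*, *Adcyap1r1* and the outer *Mgat4a* start, and in 35.7% of all promoters. The word CCAAT was present at *Adcyap1r1* and the outer *Mgat4a* start, and in 37.4% of all promoters. The TATA box word TATAAA was in none of these windows and in 13.6% of all promoters. The AP-1 word TGACTCA was likewise in none of them and in 5.20% of all promoters. A match describes the letters only.

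*Ly9* (chromosome 1 from 171588613 to 171607410, minus strand, GRCm38.p6 as for all positions here) had 881, 772 and 712 reads in the WT samples. The *Atm-/-* samples had 0, 4 and 0 reads, with 4, 2 and 2 in the *Sirt6-/-* samples. The WT samples were far above all others, and the knockouts overlapped each other at or near 0. WT had 25.0 ± 2.53 CPM (SD, n = 3), which was 647 times the *Atm-/-* level (95% counting interval 252 to 2376) and 307 times the *Sirt6-/-* level (156 to 712). All 4 *Atm-/-* reads were in replicate 2, and without that library the WT level was at least 282 times the *Atm-/-* level, with 3 reads per library as the floor. Without *Atm-/-* replicate 1 the ratio was 430.

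In *Sirt6-/-* against WT, the fitted log2 fold change of *Ly9* was -8.19 (SE 0.23, adjusted p = 1.45e-13, quasi-likelihood test of edgeR, Benjamini-Hochberg adjusted over all genes tested, as are all adjusted p-values here). The genes were chosen for their levels in WT, *Atm-/-* and *Sirt6-/-*. Adjusted p-values of the chosen genes are therefore a description and not an independent test. In GENCODE M21 the gene *Cd244a* overlaps *Ly9* on the opposite strand, and the strand of the reads is not stated. *Cd244*, its listed form, had 2 reads in WT and 0 in both knockouts.

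SLAM receptors belong to leukocytes, so the 11 listed leukocyte markers are given beside *Ly9*. They summed to 13.1 to 16.6 CPM in WT, 4.67 to 5.11 in *Atm-/-* and 5.25 to 6.09 in *Sirt6-/-*, and 3 of 11 were on in WT. *Ptprc*, the pan-leukocyte antigen CD45, had 4, 0 and 6 reads in WT, and *Cd3e* of T cells had 0 in all 3. *Spi1*, a regulator of myeloid and B cells, had no more than 3 reads in any WT library and 0, 6 and 13 in *Sirt6-/-*. *Coro1a*, also on the list, went the other way from *Ly9*. It had 2, 2 and 5 reads in WT, 15, 12 and 17 in *Atm-/-* and 41, 31 and 23 in *Sirt6-/-*. Those on in WT, *Csf1r*, *Cd68* and *Cd53*, had their highest levels in WT, as *Ly9* did, and in CPM no library of either knockout reached the lowest WT library. *Csf1r*, the receptor of macrophage growth factor, had 252, 231 and 247 reads in WT, 21, 23 and 30 in *Atm-/-* and 62, 96 and 50 in *Sirt6-/-*. *Cd53*, a leukocyte tetraspanin, had 73, 164 and 43 in WT, 6, 27 and 13 in *Atm-/-* and 2, 4 and 0 in *Sirt6-/-*. *Cd68*, a lysosomal protein of macrophages, was closest between groups, at 2.95 to 3.79 CPM in WT, 2.45 to 2.91 in *Atm-/-* and 1.17 to 2.04 in *Sirt6-/-*, and its unscaled reads overlapped between WT and *Atm-/-*. The part of these markers in the level of *Ly9* was not tested.

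Of the 14 listed genes of the SLAM family and its signalling proteins, 5 had enough reads to be tested in *Atm-/-* against WT. Of these, 1 rose and 1 fell, where 34.7% of all genes tested rose and 33.6% fell. The median log2 fold change was 0.09 beside 0.02 over all genes tested. *Slamf9*, another family receptor, fell by 3.79 on the log2 scale (SE 0.55, adjusted p = 2.51e-05). *Sh2d1b1*, the adaptor EAT-2 that binds SLAM receptor tails, rose by 4.24 (SE 0.28, adjusted p = 6.01e-09). In *Sirt6-/-*, where 4 were tested, *Slamf9* had 0 reads in every library against 118 in WT, at least 13.4-fold lower. *Slamf1*, *Slamf7* and *Cd48*, other SLAM receptors of the same chromosome 1 cluster, had 0 reads in all 9 libraries.

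*Adcyap1r1* (chromosome 6 from 55451501 to 55501455, plus strand) had 5491, 5035 and 5378 reads in WT. Its reads numbered 10, 19 and 12 in *Atm-/-*, and 4, 14 and 5 in *Sirt6-/-*. All WT samples were above all knockout samples, and the ranges of the knockouts overlapped. WT had 168 ± 6.11 CPM, *Atm-/-* 0.395 ± 0.132 and *Sirt6-/-* 0.235 ± 0.172 (SD, n = 3). The WT level was 424 times that of *Atm-/-* (interval 313 to 592) and 718 times that of *Sirt6-/-* (478 to 1133). Without *Sirt6-/-* replicate 2, which held 14 of the 23 *Sirt6-/-* reads, the latter ratio was 1231. In *Sirt6-/-* against WT, the fitted log2 fold change was -9.46 (SE 0.14, adjusted p = 2.87e-16, edgeR). Unlike *Ly9* in *Atm-/-*, every knockout library held reads of *Adcyap1r1*. The receptor is best known from neurons, and the 6 neural and glial markers went the other way, summing to 7.08 to 8.06 CPM in WT, 89.7 to 99.2 in *Atm-/-* and 80.0 to 88.1 in *Sirt6-/-*.

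The ligand PACAP is encoded by *Adcyap1*, which had 0 reads in WT and *Sirt6-/-* and 24, 49 and 28 in *Atm-/-*, at least 10.2-fold higher than in WT (edgeR adjusted p = 1.92e-05). *Vip*, a related peptide, had 4, 4 and 2 reads in WT, 2, 0 and 0 in *Atm-/-* and 17, 25 and 46 in *Sirt6-/-* (log2 fold change against WT 3.03, SE 0.58, edgeR adjusted p = 0.000264). Among the 18 listed genes of ligands, related receptors, G proteins and adenylyl cyclases, 10 were tested in *Atm-/-*, of which 2 rose and 6 fell (median log2 fold change -0.17). In *Sirt6-/-*, 4 of 9 tested rose and 4 fell, with a median of 0.08. Over all genes tested 34.7% rose and 33.6% fell in *Atm-/-*, and 39.2% rose and 37.4% fell in *Sirt6-/-*.

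Adenylyl cyclases make the second messenger cAMP when a receptor of this kind is active. In *Atm-/-* against WT, *Adcy1* fell by 1.72 on the log2 scale, *Adcy5* fell by 3.03, *Adcy7* fell by 1.96 and *Adcy9* fell by 1.74 (edgeR adjusted p = 3.92e-07, 0.000362, 8.26e-10 and 2.65e-08). *Adcy8* had 0 reads in WT and 31, 56 and 42 in *Atm-/-*, at least 12.99-fold higher (edgeR adjusted p = 5.72e-06). In *Sirt6-/-*, *Adcy1* had 2, 0 and 0 reads against 560, 345 and 471 in WT, a ratio of 714 (interval 197 to 5905). *Adcy1* was therefore close to absent in *Sirt6-/-* and present at a lower level in *Atm-/-*.

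*Il22ra1* (chromosome 4 from 135728159 to 135755383, plus strand) had 1141, 1133 and 1141 reads in WT and 805, 836 and 730 in *Atm-/-*. It had 0, 0 and 2 reads in *Sirt6-/-*. WT and *Atm-/-* both expressed the gene without overlapping, and *Sirt6-/-* was at or near 0. WT had 36.1 ± 0.253 CPM and *Atm-/-* 22.9 ± 1.19 (SD, n = 3), a ratio of 1.58 (interval 1.49 to 1.66). The fitted log2 fold change of *Atm-/-* against WT was -0.66 (SE 0.07, adjusted p = 1.49e-06, edgeR). Against *Sirt6-/-* the ratio was 1773 for WT (interval 490 to 14648) and 1125 for *Atm-/-* (311 to 9298). Both *Sirt6-/-* reads were in replicate 3, and without it WT was at least 389-fold and *Atm-/-* at least 247-fold higher. The 8 epithelial markers summed to 25.4 to 29.4 CPM in WT, 90.7 to 97.9 in *Atm-/-* and 22.1 to 26.0 in *Sirt6-/-*, so WT and *Sirt6-/-* overlapped in them and not in *Il22ra1*.

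*Il10rb*, the other chain of the interleukin-22 receptor, was present in every genotype. It had 39.5 ± 2.25 CPM in WT, 26.1 ± 1.88 in *Atm-/-* and 36.7 ± 1.86 in *Sirt6-/-*, and it fell in *Atm-/-* (log2 fold change -0.61, adjusted p = 7.66e-06, edgeR) and did not pass the test in *Sirt6-/-* (-0.10, adjusted p = 0.200, edgeR). Of the 17 listed genes of this cytokine family, its receptors and JAK-STAT signalling, 9 were tested in each comparison with WT. In *Sirt6-/-* 4 rose and 3 fell (median -0.09), and in *Atm-/-* 0 rose and 4 fell (median -0.24). The shares over all genes tested were 39.2% up and 37.4% down in *Sirt6-/-*, and 34.7% and 33.6% in *Atm-/-*.

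*Ifnlr1*, the ligand-binding chain of the interferon-lambda receptor, which also pairs with Il10rb, had 67, 46 and 52 reads in WT. The *Atm-/-* samples had 57, 71 and 71 reads, with 1, 0 and 4 in the *Sirt6-/-* samples. It fell by 4.99 in *Sirt6-/-* (SE 0.60, adjusted p = 2.58e-06, edgeR) and did not pass the test in *Atm-/-* (log2 fold change 0.13, adjusted p = 0.667). The signalling genes that rose at least 2-fold in *Sirt6-/-* were the kinase *Tyk2*, by 1.05, and the transcription factor *Stat5a*, by 1.61 (edgeR adjusted p = 9.49e-09 and 8.81e-11).

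*Slc14a1* (chromosome 18 from 78100091 to 78142119, minus strand) had 0, 0 and 1 reads in WT. The *Atm-/-* samples had 509, 757 and 575 reads, with 424, 400 and 472 in the *Sirt6-/-* samples. The knockouts were both far above WT and did not overlap each other, with *Atm-/-* higher. *Atm-/-* had 17.8 ± 3.53 CPM and *Sirt6-/-* 13.2 ± 0.910 (SD, n = 3), and their ratio was 1.35 (interval 1.26 to 1.45). The ratio to WT was 1683 for *Atm-/-* (302 to 66504) and 1248 for *Sirt6-/-* (224 to 49331), and both rest on the single WT read in replicate 3. Without that library *Atm-/-* was at least 185-fold and *Sirt6-/-* at least 137-fold higher than WT, and without WT replicate 1 the ratios were 1116 and 828. In *Sirt6-/-* against WT, the fitted log2 fold change was 9.83 (SE 0.36, adjusted p = 3.41e-12, edgeR).

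Small even numbers of reads were more frequent than odd ones in every library. Between 595 and 675 genes had 2 reads and 289 to 355 had 1 read, and 328 to 383 genes had 4 reads against 169 to 205 with 3. Whether both reads of a pair were counted is not stated, and if they were, the counting intervals are too narrow. With the reads halved, the interval for *Slc14a1* in *Atm-/-* against WT was 151 to 33252. All counting intervals leave out the variation between cultures.

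*Slc14a2*, the renal urea transporter that lies 4.03 kb from *Slc14a1*, had 2, 2 and 0 reads in WT and 0 in both knockouts. Of the 6 listed genes of urea and glycerol transport and of arginase, 1 was tested in *Atm-/-* and 2 in *Sirt6-/-*. All of these rose, beside 34.7% and 39.2% of all genes tested. *Arg2*, the mitochondrial arginase that makes urea from arginine, had 5, 3 and 7 reads in WT, 73, 84 and 79 in *Atm-/-* and 65, 66 and 39 in *Sirt6-/-*. Its log2 fold change was 3.81 in *Atm-/-* (SE 0.39, adjusted p = 7.29e-07) and 3.42 in *Sirt6-/-* (SE 0.46, adjusted p = 8.57e-06, edgeR).

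*Nkain4* (chromosome 2 from 180934766 to 180954937, minus strand) had 1380, 927 and 1455 reads in WT. The *Atm-/-* samples had 13, 4 and 4 reads, with 2, 0 and 0 in the *Sirt6-/-* samples. The 3 genotypes did not overlap, although *Atm-/-* and *Sirt6-/-* were both low. WT had 39.7 ± 8.84 CPM, *Atm-/-* 0.202 ± 0.149 and *Sirt6-/-* 0.0205 ± 0.0354 (SD, n = 3). WT replicate 2 was lower than the other WT samples. The WT level was 196 times that of *Atm-/-* (interval 128 to 317) and 1953 times that of *Sirt6-/-* (540 to 16135).

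Without *Sirt6-/-* replicate 1, which held both *Sirt6-/-* reads of *Nkain4*, WT was at least 429-fold higher, and without *Sirt6-/-* replicate 3 the ratio was 1291. Without *Atm-/-* replicate 1 the ratio of WT to *Atm-/-* was 342. In *Atm-/-* against WT, the fitted log2 fold change was -7.59 (SE 0.27, adjusted p = 6.23e-12, edgeR). The antisense gene *Gm14341* overlaps one end of *Nkain4*, and 0.888% of the 50-base words in *Nkain4* transcripts also occur in it.

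Among the paralogs, *Nkain1* was present in every genotype, with 48.4 ± 2.05 CPM in WT, 51.8 ± 2.49 in *Atm-/-* and 32.4 ± 0.921 in *Sirt6-/-* (log2 fold change against WT -0.58, adjusted p = 1.47e-06, edgeR). *Nkain2* and *Nkain3* had no more than 10 reads in any library. Of 18 listed genes of the Nkain family, the pump subunits and their Fxyd regulators, 6 were tested in *Sirt6-/-*, and 0 rose and 5 fell (median -0.90). In *Atm-/-*, 1 of 7 rose and 5 fell (median -0.49). Among all genes tested, 39.2% rose and 37.4% fell in *Sirt6-/-*, and 34.7% rose and 33.6% fell in *Atm-/-*.

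The pump's beta subunit gene *Atp1b1* fell by 1.43 in *Sirt6-/-* (SE 0.08, adjusted p = 3.16e-10, edgeR). It had 375 ± 48.4 CPM in WT, 90.0 ± 1.82 in *Atm-/-* and 139 ± 6.74 in *Sirt6-/-* (SD, n = 3). Unlike *Nkain4*, it stayed well above 1 CPM in the knockouts.

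*Edil3* (chromosome 13 from 88821472 to 89323225, plus strand) had 0, 2 and 0 reads in WT. The *Atm-/-* samples had 111, 115 and 96 reads, with 474, 601 and 539 in the *Sirt6-/-* samples. The genotypes were ordered WT, *Atm-/-*, *Sirt6-/-* with no overlap. *Atm-/-* had 3.11 ± 0.238 CPM and *Sirt6-/-* 16.4 ± 2.03 (SD, n = 3), a ratio of 5.28 (interval 4.68 to 5.97). The ratio to WT was 777 for *Sirt6-/-* (215 to 6422) and 147 for *Atm-/-* (40.4 to 1220). Both WT reads were in replicate 2, and without it *Sirt6-/-* was at least 172-fold and *Atm-/-* at least 32.6-fold higher, while without WT replicate 1 the ratios were 515 and 97.6. In *Atm-/-* against WT, the fitted log2 fold change was 6.96 (SE 0.56, adjusted p = 5.06e-08, edgeR).

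Of the listed integrin chains, *Itgav*, *Itgb3* and *Itgb5* were present in all genotypes, and *Itgal* and *Itgam* had no more than 17 reads in any library. *Itgav* had 322 ± 4.72 CPM in WT, 263 ± 20.3 in *Atm-/-* and 204 ± 7.18 in *Sirt6-/-*, where its log2 fold change was -0.66 (adjusted p = 4.65e-09, edgeR). *Itgb3*, its classical partner chain, fell by 0.41 there (adjusted p = 0.000152, edgeR). *Itgb5*, another beta chain that pairs with it, had 121 ± 6.94 CPM in WT, 92.5 ± 1.06 in *Atm-/-* and 319 ± 8.68 in *Sirt6-/-* (log2 fold change against WT 1.40, adjusted p = 3.63e-12, edgeR). *Itgb2*, the beta chain of leukocyte integrins, fell by 3.25 in *Sirt6-/-* (SE 0.19, adjusted p = 9.10e-10, edgeR). *Mfge8*, the paralog of *Edil3*, had 195 ± 1.71 CPM in WT and 192 ± 3.31 in *Sirt6-/-* (log2 fold change -0.02, adjusted p = 0.671). Of 7 listed genes 6 were tested in *Sirt6-/-*, and 1 rose and 3 fell (median -0.22), while in *Atm-/-* 1 rose and 4 fell (median -0.36). The shares over all genes tested were 39.2% up and 37.4% down in *Sirt6-/-*, and 34.7% and 33.6% in *Atm-/-*.

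*Fmo1* (chromosome 1 from 162829561 to 162866610, minus strand) had 0, 2 and 0 reads in WT and 0, 3 and 0 in *Atm-/-*. It had 468, 518 and 661 reads in *Sirt6-/-*. The *Sirt6-/-* samples stood alone, and WT and *Atm-/-* overlapped at 0 to 3 reads. *Sirt6-/-* had 16.7 ± 2.80 CPM (SD, n = 3), 793 times WT (interval 219 to 6554) and 578 times *Atm-/-* (198 to 2807). Replicate 2 held all reads of each low genotype. Without it, *Sirt6-/-* was at least 176-fold higher than WT and at least 189-fold higher than *Atm-/-*, while leaving out replicate 1 gave 526 for WT and 385 for *Atm-/-*. *Fmo1* had too few reads in *Atm-/-* and WT for a test of that pair.

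The *Fmo* genes form a cluster on chromosome 1, and *Fmo1* was above 1 CPM, unlike the neighbours named here. *Fmo2*, 7.71 kb from *Fmo1*, had 6, 2 and 0 reads in WT, 0 in every *Atm-/-* library and 8, 12 and 20 in *Sirt6-/-*. *Fmo4*, 13.5 kb away on the other side, had 1, 12 and 21 reads in all in WT, *Atm-/-* and *Sirt6-/-*. *Fmo6* had 0 reads in all libraries. *Fmo5*, which lies outside the cluster on another chromosome, was the only 1 of 6 listed family members with enough reads for a test. It had 0.834 ± 0.186 CPM in WT, 0.242 ± 0.0487 in *Atm-/-* and 1.30 ± 0.227 in *Sirt6-/-*, and it did not pass the test in *Sirt6-/-* (log2 fold change 0.64, adjusted p = 0.1005, edgeR) and fell in *Atm-/-* (-1.78, adjusted p = 0.00229).

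*Mgat4a* (chromosome 1 from 37439340 to 37541060, minus strand) had 28, 24 and 24 reads in WT. The *Atm-/-* samples had 70, 60 and 45 reads, with 120, 142 and 149 in the *Sirt6-/-* samples. Every library held reads, and the genotypes rose in the order WT, *Atm-/-*, *Sirt6-/-* without overlap. The levels were 0.802 ± 0.0656, 1.69 ± 0.346 and 4.18 ± 0.433 CPM (SD, n = 3). *Sirt6-/-* was 5.21 times WT (interval 4.07 to 6.74) and *Atm-/-* 2.10 times WT (1.60 to 2.79). *Atm-/-* against *Sirt6-/-* had a fitted log2 fold change of -1.30 (SE 0.22, adjusted p = 2.16e-05, edgeR). By the size of these ratios *Mgat4a* was unlike the other 7 genes, each of which had a ratio of 647 or more between WT and at least 1 knockout.

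*Mgat4b*, which encodes the enzyme with the same activity as Mgat4a, was at 65.4 ± 4.63 CPM in WT, 69.7 ± 3.62 in *Atm-/-* and 63.1 ± 3.805 in *Sirt6-/-*. Its log2 fold change against WT was 0.09 in *Atm-/-* (adjusted p = 0.259) and -0.05 in *Sirt6-/-* (adjusted p = 0.505, edgeR). Of 14 listed genes of N-glycan trimming and branching 11 were tested in *Sirt6-/-*, and 3 rose and 5 fell (median -0.09). In *Atm-/-*, 2 rose and 4 fell (median 0.08). Among all genes tested, 39.2% rose and 37.4% fell in *Sirt6-/-*, and 34.7% rose and 33.6% fell in *Atm-/-*. *Mgat3*, which adds the bisecting residue, fell by 1.19 in *Sirt6-/-*, and the mannosidase gene *Man1a* fell by 2.06 (edgeR adjusted p = 2.47e-08 and 2.46e-12).

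**Figure D2:**
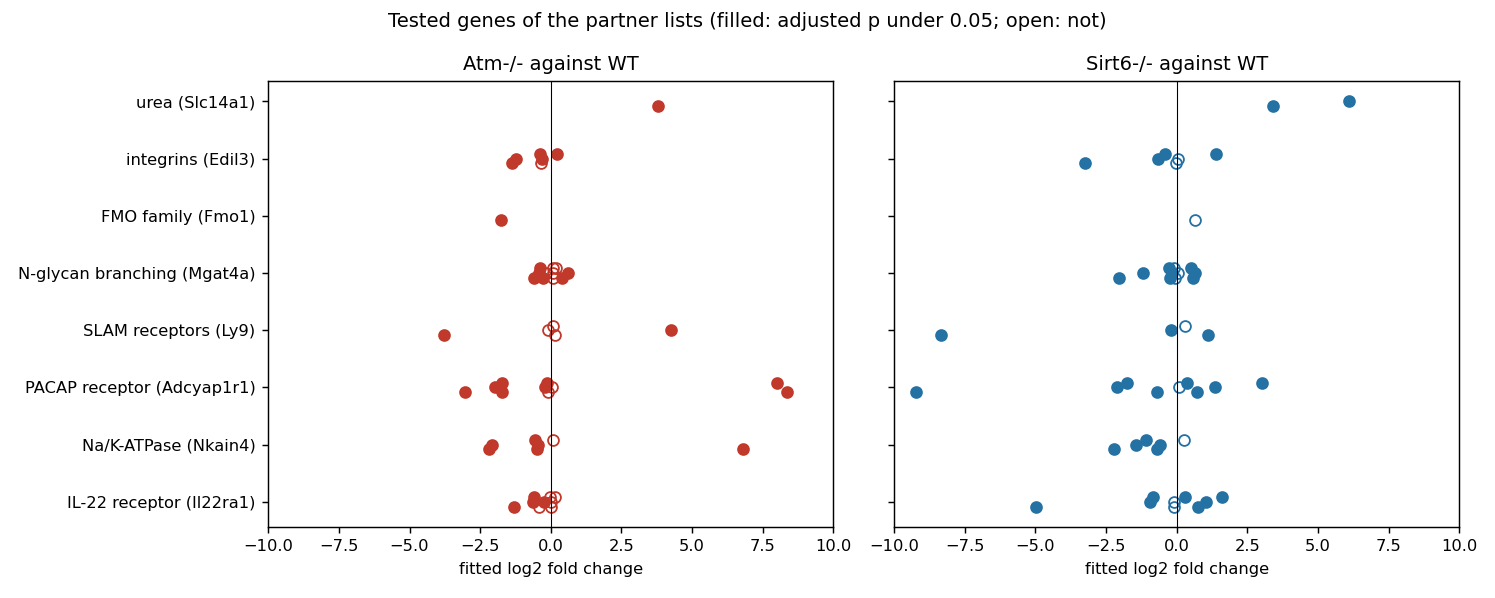
Fitted log2 fold changes of the tested genes in the 8 lists of related genes, in *Atm-/-* against WT (left) and *Sirt6-/-* against WT (right). Each point is a gene, filled where the adjusted p was under 0.05. In the list of the PACAP receptor, *Adcyap1* and *Adcy8* lie at 8.01 and 8.36 in *Atm-/-* and *Adcy1* at -9.23 in *Sirt6-/-*, and these values depend on the prior count because 1 genotype had 0 to 2 reads.

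Over all 8 lists, 50 of 100 listed genes were tested in *Atm-/-* against WT, and 8 rose and 25 fell. Over all genes tested in that comparison 34.7% rose and 33.6% fell, with library totals in place of TMM shifting the calls to 64.9% higher. In *Sirt6-/-* against WT 48 were tested, and 15 rose and 22 fell, where 39.2% of all genes tested rose and 37.4% fell. In *Atm-/-* against *Sirt6-/-* 49 were tested, and 17 were higher and 24 lower, where 38% of all genes tested were higher and 37.8% lower. The lists were written with results of these data known.

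Across the table, 395 genes or 1.62% of those listed were on in some genotypes and off in all others, and 697 genes or 2.86% were on in at least 1 genotype and off in at least 1. Of the 8 genes, 5 were of the former kind and 6 of the latter, the property they were chosen for. The pattern of *Fmo1* was shared by 61 genes in all, that of *Slc14a1* and *Edil3* by 99, that of *Ly9* by 37 and that of *Il22ra1* by 80. The 102 genes that were on in *Atm-/-* alone and the 16 off in *Atm-/-* alone included none of the 8.

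**Figure D3:**
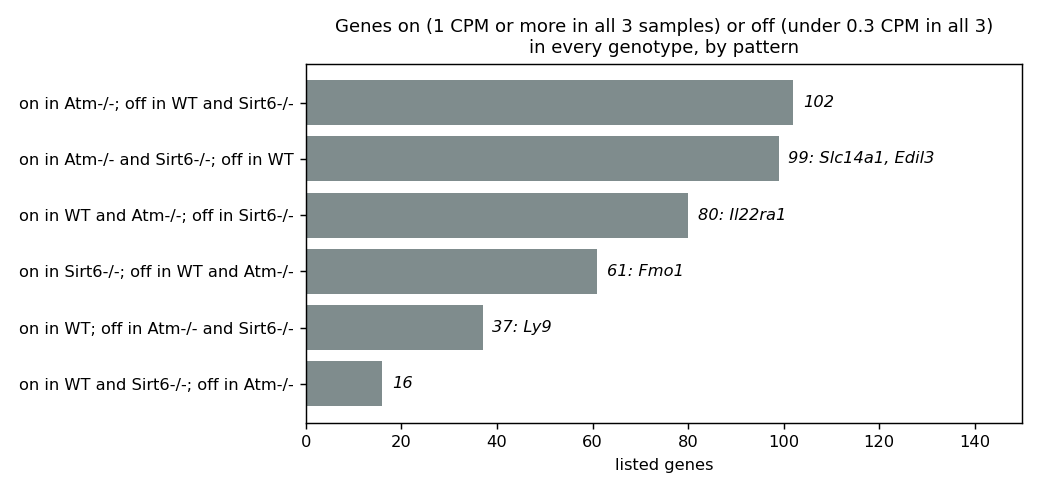
Number of listed genes in each pattern of on (1 CPM or more in all 3 samples) and off (under 0.3 CPM in all 3), with the genes described here named beside their bar. The longest bar, on in *Atm-/-* alone, has 102 genes, and the shortest, off in *Atm-/-* alone, has 16.

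The place of the genes in a ranking by fitted log2 fold change is a description, since they were picked for such differences. The ranking held called genes whose samples did not overlap and whose mean log2 CPM was 3 or more. *Slc14a1* had the 2nd largest rise in *Atm-/-*, with a log2 fold change of 10.27, between *Pitx1* (10.45) and *Foxa2* (10.01). *Ly9* and *Adcyap1r1* had the largest falls there, and *Fmod* was next at -8.56. In *Sirt6-/-*, *Fmo1* and *Edil3* followed *Nos2* (9.57) and came before *Col2a1* (9.33), while *Nkain4* and *Il22ra1* had the largest falls, before *Igfbp3*. Some also stood high in the other comparison, where *Nkain4* had the 8th largest fall in *Atm-/-*, and *Adcyap1r1* the 13th and *Ly9* the 40th in *Sirt6-/-*. *Mgat4a* was under the level limit of this ranking.

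In *Atm-/-* against WT, 7 of the 8 genes did not overlap between the genotypes, beside 72.6% of all genes tested. In *Sirt6-/-* against WT it was 8 of 8, beside 79%, with 4 of them above WT where 40.6% of all genes tested were, and in *Atm-/-* against *Sirt6-/-* 6 of 8, beside 78.2%. Reads sufficed for a test of 7, 8 and 6 genes in these pairs, and each count includes comparisons that chose the genes. Over all genes, 68.4%, 76.6% and 75.8% of those tested in the 3 pairs were called. *Fmo1* was not tested in *Atm-/-* against WT, nor *Ly9* and *Nkain4* in *Atm-/-* against *Sirt6-/-*.

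Levels of different genes were compared per transcript length, with the deposited RPKM (reads scaled by listed length and library total). *Nkain4* in WT was highest with 43.3 ± 9.70 RPKM, and *Adcyap1r1* in WT followed with 25.7 ± 0.962 (SD, n = 3). Their samples did not overlap, with 32.3 RPKM in the lowest *Nkain4* sample and 26.3 in the highest of *Adcyap1r1*. The order is the reverse of that in CPM, since the listed length is 865 bases for *Nkain4* and 6161 for *Adcyap1r1*. *Ly9* in WT had 9.42 ± 0.936 RPKM and *Fmo1* in *Sirt6-/-* 7.20 ± 1.16, and their nearest samples were 8.55 and 8.49.

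*Il22ra1* in WT (5.84 ± 0.0489 RPKM) lay within the range of *Slc14a1* in *Atm-/-* (5.09 ± 1.01), so these levels were not separated by their spread. *Il22ra1* in *Atm-/-* had 4.12 ± 0.220 RPKM and *Slc14a1* in *Sirt6-/-* 3.60 ± 0.234. *Edil3* in *Sirt6-/-* followed with 3.09 ± 0.377 RPKM, and its highest sample overlapped *Slc14a1*. *Mgat4a* was lowest even where it was most expressed, with 0.584 ± 0.0577 RPKM in *Sirt6-/-*.

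**Figure D4:**
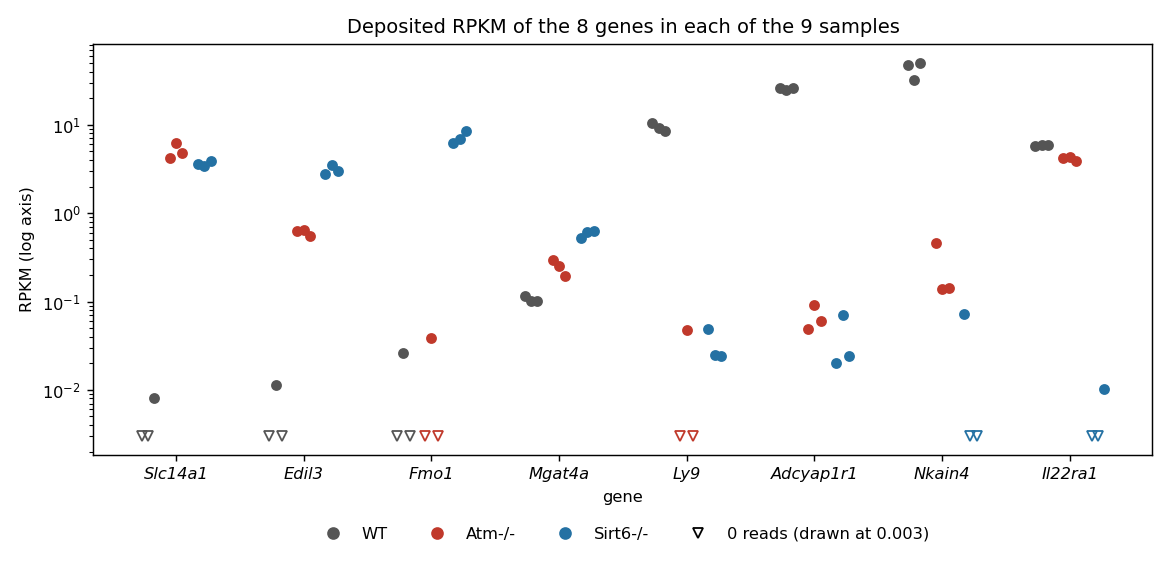
Deposited RPKM of the 8 genes in each sample on a log axis, coloured by genotype. Open triangles mark samples with 0 reads, drawn at 0.003. *Nkain4* spans from 0 reads in 2 *Sirt6-/-* samples to 50.5 RPKM in WT, and *Mgat4a* is the only gene whose genotypes lie close together.

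The genes next to each of the 8 were not part of the choice. The 3 nearest listed genes on each side were read in *Atm-/-* against WT for *Slc14a1*, *Ly9* and *Adcyap1r1* and in *Sirt6-/-* against WT for the others. Of 48 neighbours 25 had enough reads for a test, 12 changed in the direction of their gene, of which 6 at least 2-fold, and 5 changed in the other. Of all genes tested, 34.7% rose and 33.6% fell in *Atm-/-*, and 39.2% rose and 37.4% fell in *Sirt6-/-*. In either direction 68.4% and 76.6% were called, and 22.5% and 29.3% at least 2-fold. These 2-fold shares count both directions, unlike the 6 neighbours.

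*Il22ra1* stood between *Ifnlr1*, 19.98 kb away, and *Myom3*, 3.42 kb away. *Myom3*, which encodes a protein of the muscle sarcomere, had 100 reads in WT, 21 in *Atm-/-* and 4 in *Sirt6-/-* over the 3 libraries of each. It fell by 4.57 in *Sirt6-/-* and fell by 2.36 in *Atm-/-* (edgeR adjusted p = 5.04e-05 and 0.000400). The next genes on that side, *Srsf10* and *Pnrc2*, did not pass the test in *Sirt6-/-* (log2 fold change -0.04 and -0.08, edgeR adjusted p = 0.510 and 0.344), although *Pnrc2* did without WT replicate 2 (-0.18, adjusted p = 0.0208). The 5 muscle markers summed to 12.4 to 15.2 CPM in WT, 1.28 to 1.98 in *Atm-/-* and 1.41 to 1.85 in *Sirt6-/-*, with *Myod1*, *Myog* and *Ckm* at no more than 3 reads in every library, and their part in the fall of *Myom3* was not tested. The fall on this stretch covered *Ifnlr1*, *Il22ra1* and *Myom3* and was not detected in *Srsf10*.

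Upstream of *Adcyap1r1*, at 39.2 kb, the gene *6430584L05Rik* had 1178 reads in WT, 19 in *Atm-/-* and 0 in *Sirt6-/-*. Its log2 fold change was -6.06 in *Atm-/-* (adjusted p = 1.00e-11, edgeR), and WT was at least 134-fold higher than *Sirt6-/-*. *Aqp1*, a water channel gene 103 kb away, went the other way, with 6.33 CPM in WT, 28.3 in *Atm-/-* and 227 in *Sirt6-/-* (log2 fold change 2.15 and 5.16, edgeR adjusted p = 1.26e-07 and 2.35e-13). *Ghrhr*, between them, had 0 reads in all libraries.

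*Birc7*, an inhibitor of apoptosis gene that ends 0.756 kb from *Nkain4*, had 48 reads in WT and 0 in each knockout, at least 5.47-fold lower in *Sirt6-/-* and 5.72-fold lower in *Atm-/-* (edgeR adjusted p = 9.41e-05 and 9.13e-05). *Ythdf1*, a reader of RNA methylation 13.8 kb away, fell by 0.74 in *Sirt6-/-* (adjusted p = 4.20e-09, edgeR). On the other side *Arfgap1* did not pass the test in *Sirt6-/-* (log2 fold change -0.08, adjusted p = 0.216, edgeR), except without WT replicate 2 (-0.14, adjusted p = 0.0203), and *Col20a1* rose by 1.96 (adjusted p = 0.000326).

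Around *Slc14a1*, 4 tested neighbours rose in *Atm-/-*. *Setbp1* rose by 1.30 and *Pard6g* by 3.64 (edgeR adjusted p = 1.41e-07 and 8.78e-10), at 608 and 1905 kb. *Epg5* rose by 0.18 and *Pstpip2* by 0.63, close to the threshold (edgeR adjusted p = 0.0435 and 0.0497). Both calls were lost with DESeq2 (adjusted p = 0.0519 and 0.0718) and without WT replicate 2 (adjusted p = 0.154 and 0.0997), WT replicate 3 (0.107 and 0.102) or *Atm-/-* replicate 3 (0.0960 and 0.142). Leaving out *Atm-/-* replicate 1 also ended that of *Epg5* (0.101), leaving out *Atm-/-* replicate 2 that of *Pstpip2* (0.203), and the replicate block that of *Pstpip2* (0.0887).

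Beside *Ly9*, the neighbour with enough reads was *Alyref2*, which encodes an RNA export factor and fell by 0.85 in *Atm-/-* (adjusted p = 0.00431, edgeR). Beside *Fmo1* it was *Prrc2c*, which fell by 0.18 in *Sirt6-/-* (adjusted p = 0.00173, edgeR), a call lost with library totals (adjusted p = 0.0751). *Edil3* lies in a gene-poor stretch, with *Vcan*, a matrix proteoglycan gene, at 332 kb and *Xrcc4*, a DNA repair gene, at 526 kb. They rose in *Sirt6-/-* by 0.39 and 0.79 (edgeR adjusted p = 0.000168 and 9.62e-05), and *Rasa1* on the other side fell by 0.60 (adjusted p = 1.05e-07). Beside *Mgat4a*, *Coa5* fell by 0.99 in *Sirt6-/-* (adjusted p = 8.67e-11, edgeR), and *2010300C02Rik*, 70.6 kb away, had 1 read in WT, 258 in *Atm-/-* and 0 in *Sirt6-/-*.

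**Figure D5:**
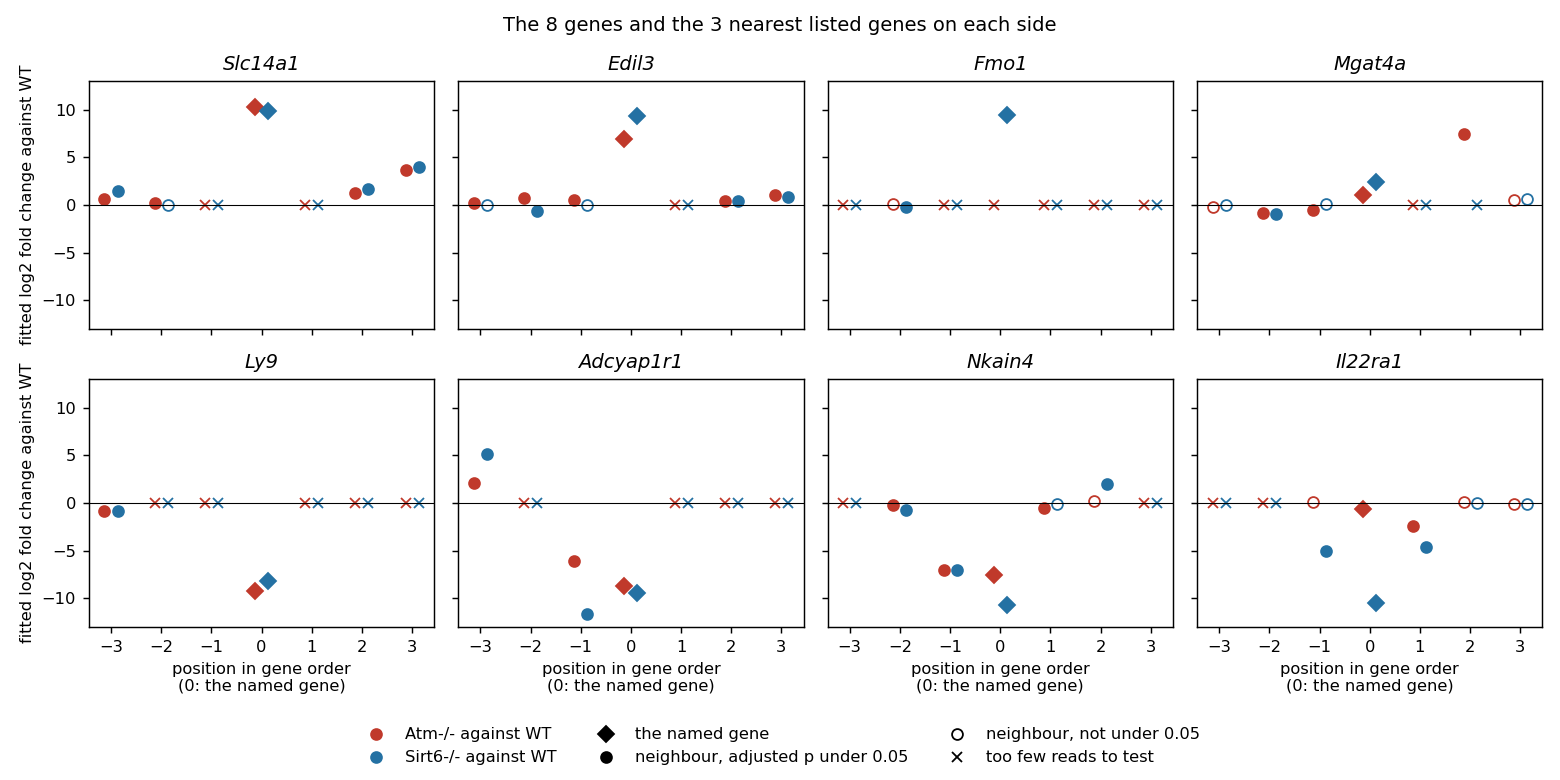
Fitted log2 fold change against WT of each of the 8 genes (diamonds at 0) and of the 3 nearest listed genes on each side (circles), by place in gene order. Filled circles had an adjusted p under 0.05, open circles did not, and crosses had too few reads. Beside *Adcyap1r1* and *Il22ra1* the filled circles next to the diamond lie below 0 in *Sirt6-/-*, at -11.64 and at -4.99 and -4.57.

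Many genes followed the levels of these 8 over the samples. Pearson's r of log2(CPM + 1) over the 9 samples is given as a description, since the samples fall into 3 genotypes. The most similar gene was *Ddc* for *Ly9* (r = 0.999), *Myo1d* for *Adcyap1r1* (0.9997), *Grb10* for *Il22ra1* (0.999), *Nov* for *Slc14a1* (0.998), *Mtss1* for *Nkain4* (0.999), *Serpina3g* for *Edil3* (0.9996), *AI839979* for *Fmo1* (0.999) and *L1cam* for *Mgat4a* (0.996). Of 13756 genes, between 71 and 213 had r over 0.99 with each of the first 7, and 7 had it with *Mgat4a*. The order depended on the pseudocount. With 0.1 in place of 1, no gene named first here stayed first, and their ranks ran from 2 for *Myo1d* and 4 for *L1cam* to 71 for *Ddc*. With a pseudocount of 1, the 2nd and 3rd most similar genes were *Cpz* and *Prr9* for *Ly9*, *Cpz* and *Ddc* for *Adcyap1r1*, and *Tgfa* and *Sirt6* itself for *Il22ra1*. With 0.1, *Cpz* was first for *Adcyap1r1* and *Sirt6* for *Il22ra1*. *Ddc* and *Cpz* had 29.7 and 17.9 CPM in WT and no more than 0.0969 in either knockout.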

How the data were processed

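RNA-Seq of 9 MEF samples was used, 3 per genotype, grouped by the sample labels. The read counts of 24341 genes were deposited as whole numbers without normalization. RPKM values were deposited beside them, made by the authors from the same counts, the listed length and the library total, and they were used only to compare levels between genes. The submitters' processing notes name mm10. The aligner, the counting tool and the strand setting are not given in the sources used here.

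Each pair of genotypes was fitted in R 4.3.3 with the quasi-likelihood functions glmQLFit and glmQLFTest of edgeR 4.0.16, after TMM scaling and filterByExpr, with a prior count of 0.125, and p-values were adjusted with the Benjamini-Hochberg method over all genes tested, with a threshold of 0.05. Standard errors came from the F statistic. Fitted fold changes of genes near 0 reads depend on the prior count. Ratios of members are ratios of summed CPM with exact conditional 95% counting intervals, and against a genotype at 0 the floor was 3 reads per library. Positions and promoters are those of RefSeq GRCm38.p6, to which 99.6% of listed genes were matched, and overlapping genes and transcripts those of GENCODE M21.

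The 8 genes, the lists of related genes and markers and the thresholds were chosen with earlier results of these data known. Named genes are the 8, *Atm*, *Sirt6* and *Trp53*, list genes that changed at least 2-fold in the pair of their member, the closest partner or paralog whatever its result, the 3 neighbours on each side, the 3 most similar genes and those beside the 8 in the ranking. Adjusted p-values of the 8 are given for no more than 1 pair per gene. They are a description, since the choice drew on the levels in all genotypes and the pairs share WT libraries or knockout libraries. The edgeR fit was first tried on simulated counts with known changes. These were planted only in genes above a minimum mean count, and all genes were given the same dispersion. No pair of samples held identical counts (r between 0.9903 and 0.9923 within a genotype, 0.843 to 0.894 between genotypes). Alternatives were size factors, library totals, a filter of at least 10 reads, no filter, 1 fit of all 9 samples, a replicate block, each sample left out, DESeq2 1.42.0 and a prior count of 2. Halved reads and ratios with a sample left out were added after the data were seen. Some list genes and neighbours are not reported here by name.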

Additional observations from a re-analysis of the deposited data

How the results depend on the processing

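In all 280 fits of the 8 genes under other settings, the direction and the side of the threshold remained those given above, while the size of most ratios against a genotype near 0 depended on 1 library, as given beside them. The count of genes on in some genotypes and off in all others was 395, 93 with on set at 5 CPM, 118 with off set at 3 reads or fewer, and 410 to 441 with a sample left out. With a sample left out, called genes numbered 8545 to 9240 in *Atm-/-* against WT, 9651 to 10217 in *Sirt6-/-* against WT and 9896 to 10007 in *Atm-/-* against *Sirt6-/-*, neighbours that changed the way of their gene 10 to 13, and list genes 32 to 36, 37 to 40 and 40 to 44. With library totals the median log2 fold change of all genes moved from 0.02 to 0.18 in *Atm-/-* and to 0.11 in *Sirt6-/-* against WT, and calls in *Atm-/-* were 6156 higher and 3326 lower, against 4611 and 4469 with TMM. Then *Il22ra1* fell by 0.50 in *Atm-/-*. With 5 neighbours on each side, 16 of 40 tested changed the way of their gene and 11 the other way. No link other than the number is given for samples with the same number. Their mean correlation of deviations was -0.00217 to 0.0264 in the 3 pairs, beside -0.0132 to 0.00109 for different numbers. In *Atm-/-* against *Sirt6-/-* it was 0.0179 to 0.0307 for each same number, above all different numbers (-0.0318 to 0.000302). The replicate block gave 8833, 10040 and 10157 calls against 9080, 10114 and 10205. At this depth a level under 0.0856 to 0.0959 CPM, 3 reads in a library, is not told from 0, and groups of 3 samples were too small for a check of single outlying samples.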
